A study of Mus musculus with 6 samples.

Results

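The genes described are 9 partners of cytoplasmic dynein and of NUMA1, out of 49997 mouse RefSeq genes on mm10. They were chosen by name, with earlier results of these data known, and not by any measured value. They are the dynein subunits *Dync1h1*, *Dync1i1*, *Dync1i2* and *Dync1li2*, the dynactin subunit *Dctn1*, the dynein regulators *Pafah1b1*, *Nde1* and *Ndel1*, and *Gpsm2*. AGO2 chimeric eCLIP was used to measure where AGO2 and its miRNAs lay on RNA. In this method RNA is crosslinked to AGO2, immunoprecipitated (IP) and compared with a size-matched input, and some reads join a miRNA to the RNA held in the same complex. Whole brains of C57Bl/6J pups at postnatal day 0 gave 1 WT library and 2 *Mov10* Deletion libraries, called *Mov10* Deletion 1 and 2 below, and the study compared them to learn how loss of MOV10 affects AGO2 on *Numa1* and other mRNAs. According to the methods, *Mov10* Deletion mice carry a *Mov10* allele whose loxP-flanked exons are removed by *Emx1*-Cre, crossed to a heterozygous *Mov10* mutant. *Emx1*-Cre acts in excitatory neurons of neocortex and hippocampus, so the whole brain still holds cells of other origin. The labels do not say whether a library came from 1 brain or from a pool.

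Cytoplasmic dynein is the motor that carries cargo towards the minus ends of microtubules. It works with dynactin and with the regulators LIS1 (encoded by *Pafah1b1*), NDE1 and NDEL1. At the cell cortex of a dividing cell, LGN (encoded by *Gpsm2*) holds NUMA1, and NUMA1 binds dynein, which pulls on the spindle. In the developing brain the same proteins move nuclei in progenitors and migrating neurons and carry cargo in dendrites and axons, and mutations in *PAFAH1B1* cause lissencephaly.

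A cluster is a stretch of RNA in which AGO2 reads pile up, and its log2 IP over input and −log10 p are those the authors deposited. A cluster was counted for a gene when it overlapped the gene body on the same strand, and no other RefSeq gene on the same strand overlapped any of the 9. A cluster passed the p-value where its −log10 p was 3 or more, and it was called enriched where its log2 was also 3 or more. This is the usual eCLIP convention and need not be the cut-off of the study, which its text does not give. Total depth is unknown, and the reads given below for single clusters were inferred from the deposited ratio and p, with an input of 1 standing for 0 or 1 reads. By this inference a cluster over 1 input read needed 16 IP reads to be enriched in WT, but 9 and 8 in *Mov10* Deletion 1 and 2, so that calls of the genotypes rest on different numbers of reads. With 1 WT library there was no replicate check of WT and no test between genotypes was made. The targeted gene itself, *Mov10*, had 1 enriched cluster in WT, with a log2 of 4.0, and none among its 9 clusters in either *Mov10* Deletion library. All 7 brain markers checked had clusters in every library, whereas 1 of 5 markers of liver, heart and pancreas had any (1 cluster in WT and 3 in *Mov10* Deletion). In whole brain, fewer cells of a type and less RNA per cell cannot be told apart.

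The 9 genes held 278 of the 359172 AGO2 clusters in WT, and 499 of 616014 and 499 of 616005 in *Mov10* Deletion 1 and 2. In WT, 1 of the 278 was enriched (0.360%, exact Clopper-Pearson 95% interval 0.00911 to 1.99), against 2.11% of all WT clusters. In *Mov10* Deletion 1 it was 15 of 499 (3.01%, interval 1.69 to 4.91), against 5.18% of all. *Mov10* Deletion 2 had 14 of 499 (2.81%, interval 1.54 to 4.66), against 3.10% of all. The share over the 9 genes together was thus below the background in every library. In *Mov10* Deletion 2 the margin lay well inside the interval. The long gene *Dync1i1* held 131 of the 278 clusters in WT and 235 of the 499 in each *Mov10* Deletion library. Of these, 0, 5 and 1 were enriched, and their median log2 in *Mov10* Deletion 2 was 0.25. The shares, and the medians given below, thus lean on 1 gene, and shares without it were not computed. The intervals cover counting error only, and neighbouring clusters of a gene share reads and input. The median log2 of the clusters was 0.76 in WT, equal to that of all clusters, and 0.99 and 0.79 in *Mov10* Deletion 1 and 2, against 1.12 and 1.25 of all clusters.

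**Figure D1:**
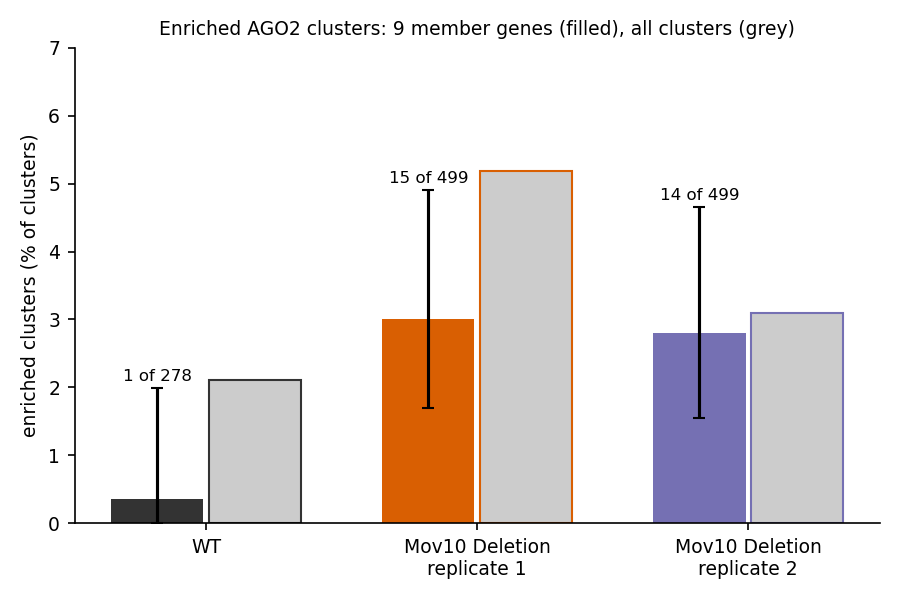
Share of AGO2 clusters that were enriched (vertical axis, percent of clusters) in each library, for the 9 genes (filled bars, with exact 95% intervals and counts) and for all clusters (grey bars). The filled bars stand at 0.360%, 3.01% and 2.81%, each below the grey bar of its library.

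Of the 9 genes, 1 had an enriched cluster in WT, *Ndel1*, where 18.7% of all genes with a cluster and 20.6% of the protein-coding ones had one. *Mov10* Deletion 1 had 5 (*Dync1h1*, *Dync1i1*, *Dync1i2*, *Dctn1* and *Pafah1b1*), against 40.9% of all genes and 45.4% of protein-coding genes. *Mov10* Deletion 2 also had 5 (*Dync1h1*, *Dync1i1*, *Dync1i2*, *Ndel1* and *Pafah1b1*), against 32.1% and 35.7%. The 4 genes called in both *Mov10* Deletion libraries were *Dync1h1*, *Dync1i1*, *Dync1i2* and *Pafah1b1*. Of all genes 24.1% were called in both, and of protein-coding genes 27.0%. These 4 held the most clusters of the 9 genes in *Mov10* Deletion (65, 235, 48 and 50). A gene with more clusters has more chances of a call, and the shares of all genes were not matched for this. The counts of genes called depended on the cut-off. With a −log10 p of 5 or more required, the counts in *Mov10* Deletion 1 and 2 were 2 and 3, with 1 gene in both, while WT kept its 1. The share of all genes at this stricter cut-off was not computed, so whether the drop is particular to the 9 genes is unknown.

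The *Mov10* Deletion libraries were deposited with the same coordinates for all 499 clusters of these genes, so positions were not found independently and only the enrichment was measured in each. That enrichment varied widely. The log2 of the same cluster differed between the replicates by a median of 1.46, and Pearson's r over the 499 clusters was 0.096, given as a description of clusters with few reads. Of 25 clusters enriched in either replicate, 4 were enriched in both (16%, against 9.38% of all clusters enriched in either). These 4 were 1 cluster in *Dync1i1*, 1 in *Dync1i2* and 2 adjoining clusters in *Pafah1b1*. No cluster of the 9 genes had the same coordinates in WT and *Mov10* Deletion, so WT values are set beside overlapping clusters.

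**Figure D2:**
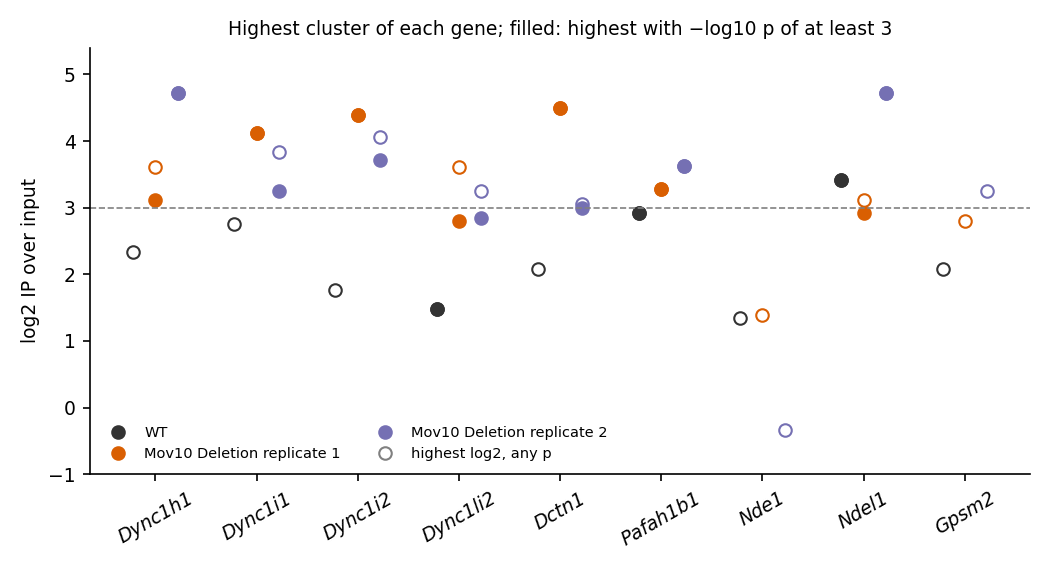
Highest log2 IP over input among the clusters of each gene in WT, *Mov10* Deletion 1 and *Mov10* Deletion 2, as filled points for clusters that passed the p-value and as open points for the highest at any p. The dashed line marks a log2 of 3. In WT the point of *Ndel1*, at 3.42, is the one above the line. *Nde1* and *Gpsm2* have no filled point in any library, and *Dync1h1*, *Dync1i1*, *Dync1i2* and *Dctn1* have none in WT.

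*Pafah1b1* (Gene ID 18472, chr11:74673949-74724384 in mm10, minus strand) encodes LIS1, which binds the dynein motor and keeps it active under load. It had more clusters with a positive log2 past the p-value than any other of the 9 genes in each library. In WT, 8 of its 29 clusters were of this kind, of 10 in all 9 genes together, and none of these 8 reached a log2 of 3. In *Mov10* Deletion 1 it was 12 of 50, of 44 in all 9 genes, and in *Mov10* Deletion 2 it was 9 of 50, of 26 in all 9 genes, with 4 enriched in each. Most lay within about the last 3000 nt of the gene. In the canonical transcript of GENCODE on GRCm39, *Pafah1b1-201*, the 3'UTR is 3720 nt long and wholly in the last exon of 3794 nt. Distances given below are counted from the 3' end of the gene, whose last base is 1.

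Within this 3'UTR, 4 neighbouring sites were each assigned to a miRNA in more than 1 library. The chimeric target cluster at 1206 to 1276 nt was assigned to miR-124-3p in WT with a deposited score of 17.6 and in *Mov10* Deletion 1 with 10.2, and was not listed in *Mov10* Deletion 2. The AGO2 cluster there had a log2 of 2.93 in WT (36 IP reads over 4 input reads), 3.21 in *Mov10* Deletion 1 (53 over 10) and 1.25 in *Mov10* Deletion 2 (9 over 9). Its −log10 p was 5.81, 13.9 and 1.00 in the same order. In log2, the replicates of *Mov10* Deletion thus stood on either side of WT at the miR-124-3p site. The median log2 of all clusters was lower in WT (0.76) than in *Mov10* Deletion 1 and 2 (1.12 and 1.25). Ranked by log2 among all clusters of its own library, the site was highest in WT, at percentile 96.6. The percentiles in *Mov10* Deletion 1 and 2 were 91.7 and 59.5.

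Next, at 1369 to 1456 nt, lay a target cluster of miR-125b-5p, which was listed in all 3 libraries with scores of 42.7 in WT, 23.2 in *Mov10* Deletion 1 and 8.23 in *Mov10* Deletion 2. These were the highest scores of the gene in each library. The AGO2 log2 at this site was 2.73 in WT (55 reads over 7, −log10 p 6.99), 3.28 in *Mov10* Deletion 1 (39 over 7, 10.5) and 3.62 in *Mov10* Deletion 2 (31 over 6, 11.8). All 3 libraries passed the p-value and both *Mov10* Deletion replicates, but not WT, passed the fold. WT had the lowest log2 of the 3 libraries here, a difference that was not tested. By percentile within its library it lay between the replicates, at 95.2 against 92.1 in *Mov10* Deletion 1 and 96.3 in *Mov10* Deletion 2. The adjoining cluster, at 1448 to 1515 nt in *Mov10* Deletion, had a log2 of 3.19 and 3.25 in its replicates, and the WT cluster at 1461 to 1517 nt had 2.56. By percentile WT was the highest there, at 94.2 against 91.7 and 92.9.

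Further from the end, a site at 1731 to 1797 nt was assigned to miR-16-5p in WT (score 11.7, with miR-15b-5p at 3.60 and miR-124-3p at 3.46) and in *Mov10* Deletion 1 (15.1, with miR-30c-5p at 3.39). The AGO2 log2 there was 1.24 in WT, 2.59 in *Mov10* Deletion 1 and 2.20 in *Mov10* Deletion 2, with −log10 p of 2.32, 12.6 and 6.08. WT was the lowest of the libraries at this site, from 42 IP reads over 15 input reads. It was also the lowest by percentile, at 63.2 against 81.5 and 79.3. At 2536 to 2603 nt let-7b-5p was assigned in WT (6.55, with miR-672-5p at 4.08) and in *Mov10* Deletion 1 (4.60). Here WT was the highest, with a log2 of 2.38 (37 over 6, −log10 p 4.27) against 1.80 (14 over 7, 2.09) and 1.84 (6 over 4, 1.13). The WT cluster is 91 nt wide. The *Mov10* Deletion cluster is 13 nt wide and passed the p-value in neither replicate. The order of WT and *Mov10* Deletion thus differed between sites of the same 3'UTR, at this last site on unlike clusters.

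**Figure D3:**
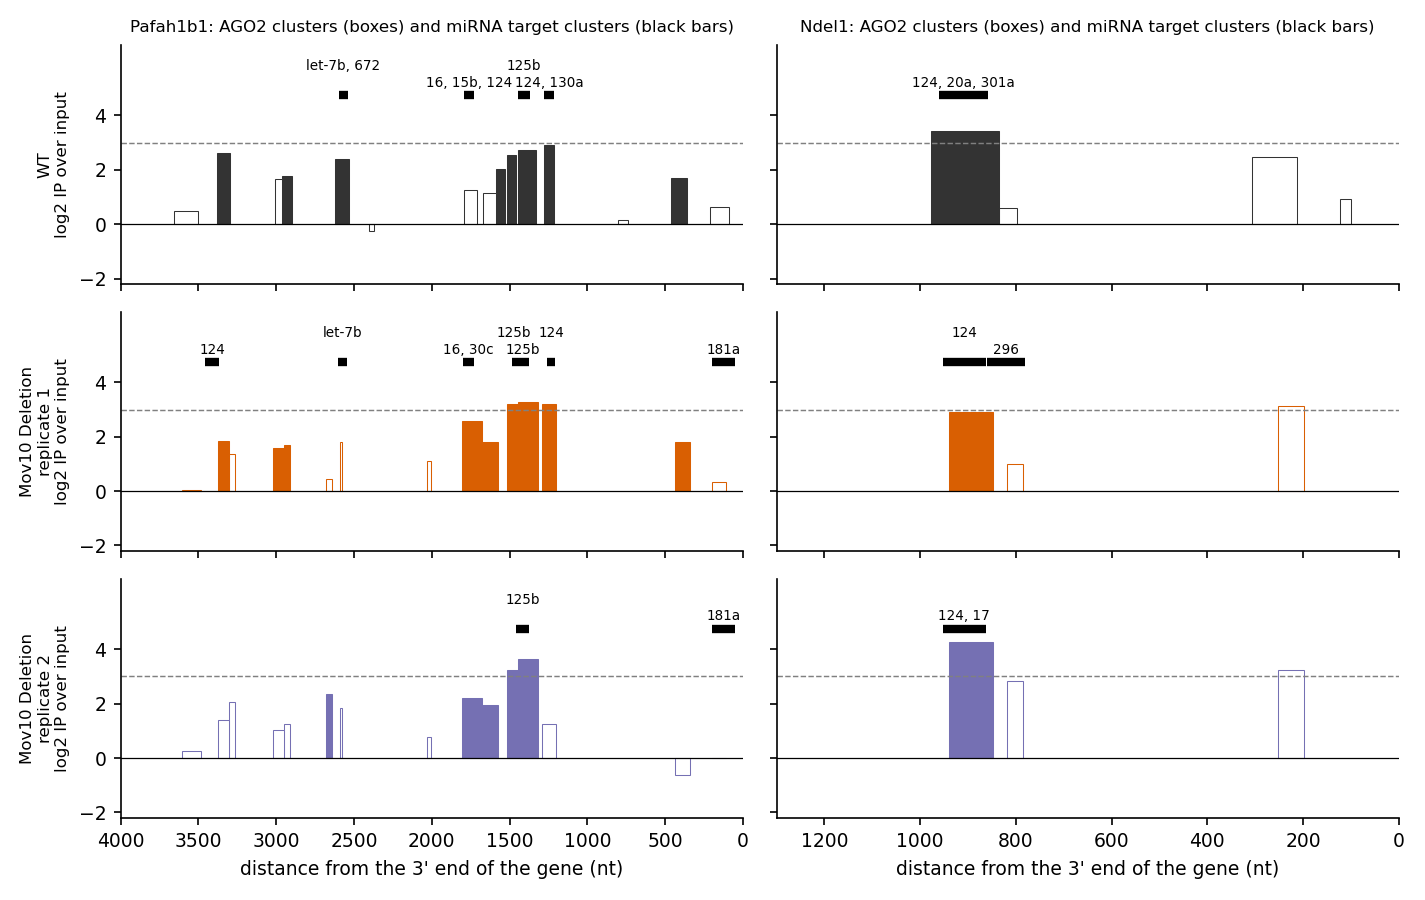
AGO2 clusters in the last 4000 nt of *Pafah1b1* (left) and the last 1300 nt of *Ndel1* (right) in each library. Boxes show log2 IP over input (vertical axis) against distance from the 3' end of the gene in nt (horizontal axis) and are filled where the p-value was passed, the dashed line marks a log2 of 3, and black bars are miRNA target clusters, labelled by miRNA number. The miR-125b-5p bar of *Pafah1b1* and the miR-124-3p bar of *Ndel1* appear in all 3 libraries.

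The mature sequences of miRNAs assigned to the recurring 3'UTR sites of *Pafah1b1* and *Ndel1*, and of miR-9-5p, are shown with their seeds, nucleotides 2 to 8, in capitals, because the seed gives the letters to look for in the 3'UTR. They are from RefSeq on GRCm38.p6, which held a mature sequence for 28 of the 34 miRNAs named in the 9 genes. miR-16-5p and miR-15b-5p share a seed, as do miR-17-5p and miR-20a-5p, and miR-301a-3p and miR-130a-3p.
miR-125b-5p: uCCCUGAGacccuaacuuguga
miR-16-5p: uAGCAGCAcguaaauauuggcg
miR-15b-5p: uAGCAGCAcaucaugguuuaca
miR-17-5p: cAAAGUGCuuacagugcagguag
miR-20a-5p: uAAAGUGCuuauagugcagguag
miR-301a-3p: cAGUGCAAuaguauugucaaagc
miR-130a-3p: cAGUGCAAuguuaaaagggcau
let-7b-5p: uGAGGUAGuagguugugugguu
miR-672-5p: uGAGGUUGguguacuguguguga
miR-30c-5p: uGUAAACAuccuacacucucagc
miR-181a-5p: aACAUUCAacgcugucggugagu
miR-296-3p: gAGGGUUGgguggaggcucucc
miR-9-5p: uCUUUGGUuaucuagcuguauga

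For the 5 genes whose span differs by less than 500 nt between mm10 RefSeq and the GRCm39 canonical transcript, each target cluster was set beside the transcript at the same distance from the end and searched on the sense strand for the match to its miRNA's seed (CTCAGGG for miR-125b-5p, TGCTGCT for miR-16-5p and miR-15b-5p, GCACTTT for miR-17-5p and miR-20a-5p, TTGCACT for miR-301a-3p and miR-130a-3p, ACCAAAG for miR-9-5p). Of 34 assignments in these genes to miRNAs with a sequence, 28 fell on exonic sequence and 10 of these held the match. A stretch named in several libraries or with several miRNAs counts once for each, and the distinct stretches are printed below. miR-124-3p, which took 41 of the 112 assignments in the 9 genes, had no sequence in the source and was not searched. The miR-125b-5p target cluster that *Pafah1b1* had in all 3 libraries held CTCAGGG at 1409 to 1415 nt from the end, nucleotides 2306 to 2312 of the 3'UTR, as the one such match in that 3'UTR, whereas the further miR-125b-5p cluster of *Mov10* Deletion 1, at 1457 to 1483 nt with a score of 5.56, held none. A window of the same length and distance held it in 0.713% to 0.749% of 21770 canonical protein-coding transcripts. The miR-16-5p cluster held TGCTGCT at 1761 to 1767 nt, which 1.25% to 1.28% of transcripts held in like windows, as 1 of 3 such matches in the 3'UTR. The 2 matches start 352 nt apart in GRCm39, and the middles of the target sites lie 351.5 nt apart in mm10. Matches were sought only inside the windows of these sites, so the spacings had to be close and are no check on the builds. The other exonic assignments of *Pafah1b1*, to let-7b-5p, miR-672-5p, miR-30c-5p, miR-181a-5p, miR-130a-3p and miR-126a-3p, held no match to their miRNA's seed in their windows. The spans of *Pafah1b1* in the builds differ by 318 nt. Where in the gene this difference lies was not worked out, so the windows may be off by an amount that was not measured. The matched stretches, with the match in capitals, read 5' to 3' on the minus strand of GRCm39:
*Pafah1b1*, miR-125b-5p, chr11:74566173-74566199: aacattgaatCTCAGGGatggtccaca
*Pafah1b1*, miR-16-5p and miR-15b-5p, chr11:74566525-74566551: cgttctcattTGCTGCTatttcctgtc
*Ndel1*, miR-17-5p and miR-20a-5p, chr11:68713147-68713173: tcacatgattGCACTTTtgtgggtcac
*Ndel1*, miR-301a-3p, chr11:68713149-68713175: tttcacatgaTTGCACTtttgtgggtc
*Ndel1*, miR-9-5p, chr11:68734665-68734691: caggctgataACCAAAGactgaagtat

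*Ndel1* (Gene ID 83431, chr11:68821434-68853146 in mm10, minus strand) encodes NDEL1, which brings LIS1 to dynein. It was the one gene of the 9 with an enriched cluster in WT. That cluster lay 835 to 976 nt from the end, inside the 1138-nt 3'UTR of the canonical transcript, with a log2 of 3.42 from 38 reads over 3 (−log10 p 6.95). The overlapping *Mov10* Deletion cluster, at 848 to 939 nt, had a log2 of 2.91 in replicate 1 (26 over 6, −log10 p 6.41) and 4.25 in replicate 2 (8 over 1, 3.42). The WT value lay between those of the replicates, and all 3 libraries passed the p-value. miR-124-3p was assigned to this place in all 3 libraries, with scores of 15.8, 9.97 and 8.48.

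Other miRNAs named at the *Ndel1* 3'UTR site differed between libraries. WT had miR-20a-5p (4.96) and miR-301a-3p (3.0), *Mov10* Deletion 2 had miR-17-5p (7.0), and *Mov10* Deletion 1 had miR-296-3p (10) in an adjoining target cluster. The span of *Ndel1* is 31713 nt in both builds. Its 3'UTR held 1 match for the seed shared by miR-17-5p and miR-20a-5p, at 898 to 904 nt, and 1 for that of miR-301a-3p, at 900 to 906 nt, which overlap in the letters GCACT and both lie within the target clusters named with these miRNAs. Like windows held these matches in 0.543% to 0.682% of transcripts. The miR-296-3p cluster held no match to its seed. A coding stretch 22414 to 22540 nt from the end, named with miR-9-5p in WT (score 4.81, AGO2 log2 1.43), held the miR-9-5p match, which 1.32% of like windows held. Away from the end, the other enriched clusters of *Ndel1* were seen in *Mov10* Deletion 2. A cluster of 60 nt starting 18969 nt from the end had a log2 of 4.71 from 11 reads over 1, as did an adjoining one of 18 nt, and one of 82 nt starting at 20628 nt had 3.50 from 19 over 4, against 2.30 from 17 over 6 in *Mov10* Deletion 1.

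*Nde1* (Gene ID 67203, chr16:14163275-14192928, plus strand), the paralog of *Ndel1* that acts mainly in dividing progenitors, stood at the other end of the range. It held 3 clusters in WT and 2 in *Mov10* Deletion, or 0.101 and 0.0674 per kb. Their highest log2 was 1.34 in WT (3 reads over 1), 1.38 in *Mov10* Deletion 1 (6 over 4) and -0.33 in *Mov10* Deletion 2 (1 over 3). *Gpsm2* (Gene ID 76123, chr3:108678270-108722331, minus strand), whose product LGN holds NUMA1 at the cortex, had 10 clusters in WT and 11 in *Mov10* Deletion, or 0.227 and 0.250 per kb. The highest were 2.08 in WT (5 over 1), 2.80 in *Mov10* Deletion 1 (4 over 1) and 3.25 in *Mov10* Deletion 2 (4 over 1), with −log10 p of 0.641, 1.20 and 1.54. Neither gene had a target cluster or a cluster past the p-value in any library. The other 7 genes held 0.378 to 0.639 clusters per kb in WT and 0.725 to 1.11 in *Mov10* Deletion. At 1 to 6 reads per cluster, enrichment in *Nde1* and *Gpsm2* was not detectable rather than shown to be absent.

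The intermediate chains link the dynein motor to its cargo and to dynactin. *Dync1i2* (Gene ID 13427, chr2:71211676-71263303, plus strand) is the widely expressed form. It had no cluster past the p-value in WT among 33, and 1 enriched cluster in each *Mov10* Deletion library, at the same place 8784 to 8897 nt from the end. Its log2 was 4.38 in *Mov10* Deletion 1 (12 over 1) and 3.71 in *Mov10* Deletion 2 (11 over 2), and the overlapping WT cluster had 1.56 (7 over 2, −log10 p 0.711). The site was named with miR-30 family members in WT (miR-30c-5p at 6.64, miR-30b-5p and miR-30e-5p at 3.0) and in *Mov10* Deletion 1 (miR-30b-5p at 5.0, miR-30c-5p at 4.0). At this distance the GRCm39 transcript has an intron, though the spans of the gene in the builds differ by 91 nt. With 7 to 12 IP reads in a library, a few reads more or less would move these values widely.

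A second recurring site of *Dync1i2*, at 27264 to 27329 nt, was named with both miR-9-5p and miR-125b-5p in all 3 libraries. Its scores for miR-9-5p were 8.05 in WT, 3.02 in *Mov10* Deletion 1 and 4.02 in *Mov10* Deletion 2, and for miR-125b-5p 3.99, 14.9 and 11. miR-9-5p thus had the higher score in WT and miR-125b-5p in both *Mov10* Deletion replicates, a difference that was not tested. The AGO2 log2 was 1.27 (40 reads over 14), 1.39 (80 over 53) and 1.07 (29 over 33), with WT between the replicates. By percentile among the clusters of its own library WT was the highest, at 63.4 against 58.3 and 46.8. On the GRCm39 transcript 45 nt of this window were coding sequence and held neither seed match. The spans of *Dync1i2* in the builds differ by 91 nt, more than the window's length, so the stretch searched may miss the cluster. Near its end, at 86 to 307 nt, miR-124-3p was assigned in all 3 libraries (9.36, 3.29 and 3.78), over AGO2 clusters with a log2 of 0.16, 0.38 and 0.58.

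*Dync1i1* (Gene ID 13426, chr6:5725600-6028039, plus strand), the form enriched in neurons, is the longest of the genes at 302440 nt and held 131 clusters in WT and 235 in *Mov10* Deletion. None passed the p-value in WT. In *Mov10* Deletion 1 there were 5 enriched clusters and in *Mov10* Deletion 2 there was 1, which was also enriched in *Mov10* Deletion 1. This shared cluster lay 197132 to 197267 nt from the end, with a log2 of 3.46 (19 over 3) and 3.25 (12 over 3), against 1.66 in WT (15 over 4, −log10 p 1.43). miR-124-3p was assigned there in WT (3.68) and *Mov10* Deletion 1 (3.92). The highest value of the gene, 4.12 in *Mov10* Deletion 1 (10 over 1), lay 53 to 126 nt from the end and was not past the p-value in *Mov10* Deletion 2. miR-124-3p was also assigned to the same places in both *Mov10* Deletion replicates at 104746 to 104809 nt and at 269336 to 269415 nt, with scores of 3.0 to 3.70. All of the miR-466i-5p assignments in the 9 genes lay in *Dync1i1*, 1 in WT and 2 in *Mov10* Deletion 2.

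*Dync1h1* (Gene ID 13424, chr12:110601395-110666944, plus strand), the heavy chain that holds the motor domain, had no WT cluster past the p-value among 33. Its 2 enriched clusters in *Mov10* Deletion 1 and 4 in *Mov10* Deletion 2 did not coincide. The highest were a cluster of 22 nt in *Mov10* Deletion 1, at 3846 nt from the end with a log2 of 3.12 (15 over 3), and a cluster of 18 nt in *Mov10* Deletion 2, at 37075 nt with 4.71 (11 over 1). When clusters under 20 nt were left out, the highest value in *Mov10* Deletion 2 was 3.37. The recurring target site, at 20649 to 20728 nt, was named with miR-124-3p in all 3 libraries (scores 4.0, 8.57 and 4.82). The AGO2 log2 there was 0.98 in WT, 1.67 in *Mov10* Deletion 1 and 0.67 in *Mov10* Deletion 2, with −log10 p of 1.52 or less.

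*Dync1li2* (Gene ID 234663, chr8:104417674-104443050, minus strand), a light intermediate chain that binds cargo adaptors, had no enriched cluster. It had 1 cluster near its end that passed the p-value in all 3 libraries. At 392 to 572 nt from the end in WT and 410 to 543 nt in *Mov10* Deletion, its log2 was 1.47 in WT (69 over 21, −log10 p 4.52), 1.71 in *Mov10* Deletion 1 (60 over 32, 7.70) and 2.32 in *Mov10* Deletion 2 (21 over 10, 5.10). WT assigned miR-16-5p to this place (4.65) and *Mov10* Deletion 1 assigned miR-503-5p (6.0), a relative of miR-16-5p with a seed of its own. No miRNA was listed there in *Mov10* Deletion 2.

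*Dctn1* (Gene ID 13191, chr6:83165909-83200118, plus strand), which encodes the dynactin subunit p150Glued that binds microtubules and dynein, had 16 clusters in WT, none past the p-value. *Mov10* Deletion 1 had 3 enriched clusters, the highest with a log2 of 4.50 (13 over 1), and *Mov10* Deletion 2 had none. A cluster at 2663 to 2768 nt from the end came close in each replicate, at log2 values of 2.80 and 2.99 (−log10 p 3.13 and 3.25). The one target cluster of the gene was in *Mov10* Deletion 1, named with miR-9-5p (4.24), over an AGO2 log2 of 0.80.

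Chimeric reads named 112 miRNA assignments in the 9 genes, 40 in WT, 50 in *Mov10* Deletion 1 and 22 in *Mov10* Deletion 2, and a target cluster with several miRNAs counts once for each. The lists hold only clusters with a score of at least 3, so an absent miRNA is one not listed. Genes with a target cluster numbered 6 in WT, 7 in *Mov10* Deletion 1 and 6 in *Mov10* Deletion 2, against 46.5%, 52.5% and 37.1% of protein-coding genes with an AGO2 cluster. *Dctn1* was the gene listed in *Mov10* Deletion 1 alone. miR-124-3p, which is abundant in neurons, took 14 of 40, 18 of 50 and 9 of 22 assignments, or 35.0%, 36.0% and 40.9%. Over all genes its shares were 42.2%, 34.8% and 36.8%, inside the exact 95% intervals of the 9 genes (20.6 to 51.7, 22.9 to 50.8 and 20.7 to 63.6). miR-125b-5p took 4, 6 and 3 assignments (10%, 12% and 13.6%, against 6.13%, 5.55% and 5.51% over all genes, also inside the intervals). miR-9-5p took 3, 5 and 1 (7.5%, 10% and 4.55%, against 9.12%, 6.69% and 6.86%). In all, 34 miRNAs were named, 18 of them once.

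**Figure D4:**
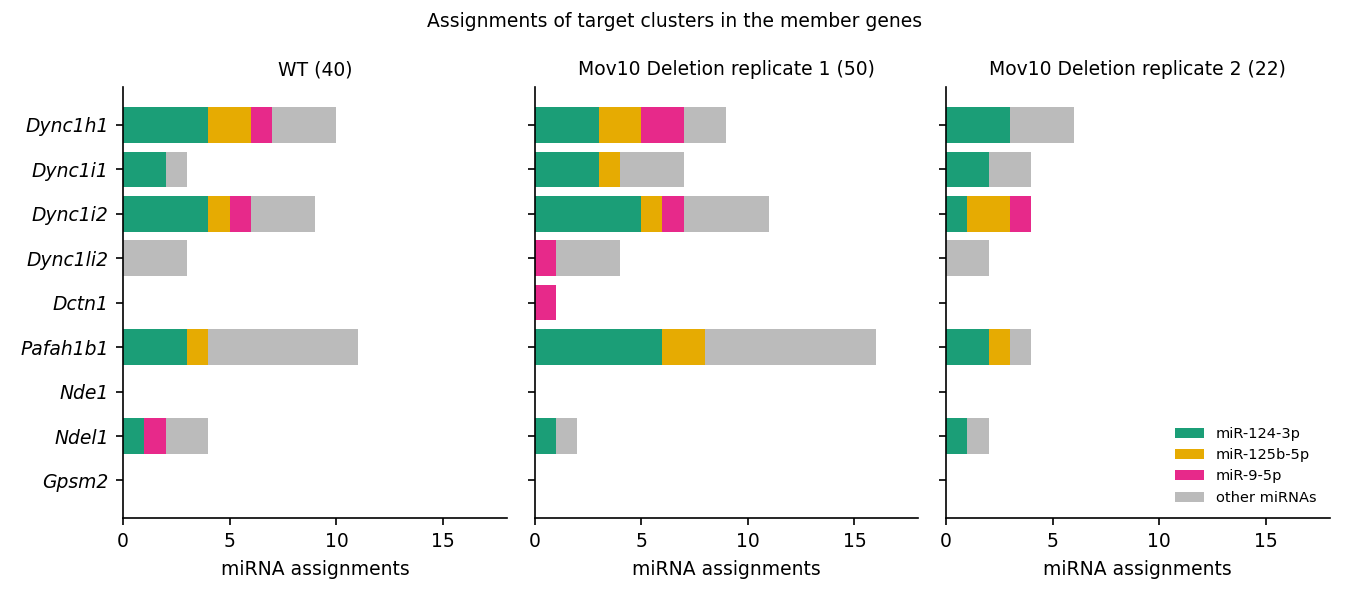
miRNA assignments (horizontal axis, number) in each of the 9 genes in WT, *Mov10* Deletion 1 and *Mov10* Deletion 2, coloured by miRNA. *Pafah1b1* leads in *Mov10* Deletion 1 with 16, and *Nde1* and *Gpsm2* have none in any library.

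Merging overlapping target clusters gave 72 sites, of which 56 were seen in 1 library, 10 in 2 and 6 in all 3. Of the WT assignments, 13 of 40 (32.5%) were met again in *Mov10* Deletion 1 with the same miRNA and an overlapping cluster, against 34.4% over all genes, and 7 of 40 (17.5%) in *Mov10* Deletion 2, against 19.4%. Between the replicates, 9 of the 22 of *Mov10* Deletion 2 (40.9%, interval 20.7 to 63.6) were met in *Mov10* Deletion 1, against 28.1% over all genes. Recurrence in the 9 genes was thus close to that of all genes, within its intervals. Of the target clusters, 5 of 30 in WT, 11 of 46 in *Mov10* Deletion 1 and 3 of 19 in *Mov10* Deletion 2 lay on an AGO2 cluster that had a positive log2 and passed the p-value (16.7%, 23.9% and 15.8%, against 26.4%, 20.4% and 18.8% of all target clusters). The last 1000 nt of the genes held 5 of 30, 7 of 46 and 3 of 19 target clusters (16.7%, 15.2% and 15.8%, against 17.8%, 13.2% and 14.5% over protein-coding genes). Among AGO2 clusters the last 1000 nt held 6.83%, 3.41% and 3.41%, against 4.46%, 3.67% and 3.67%.

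**Figure D5:**
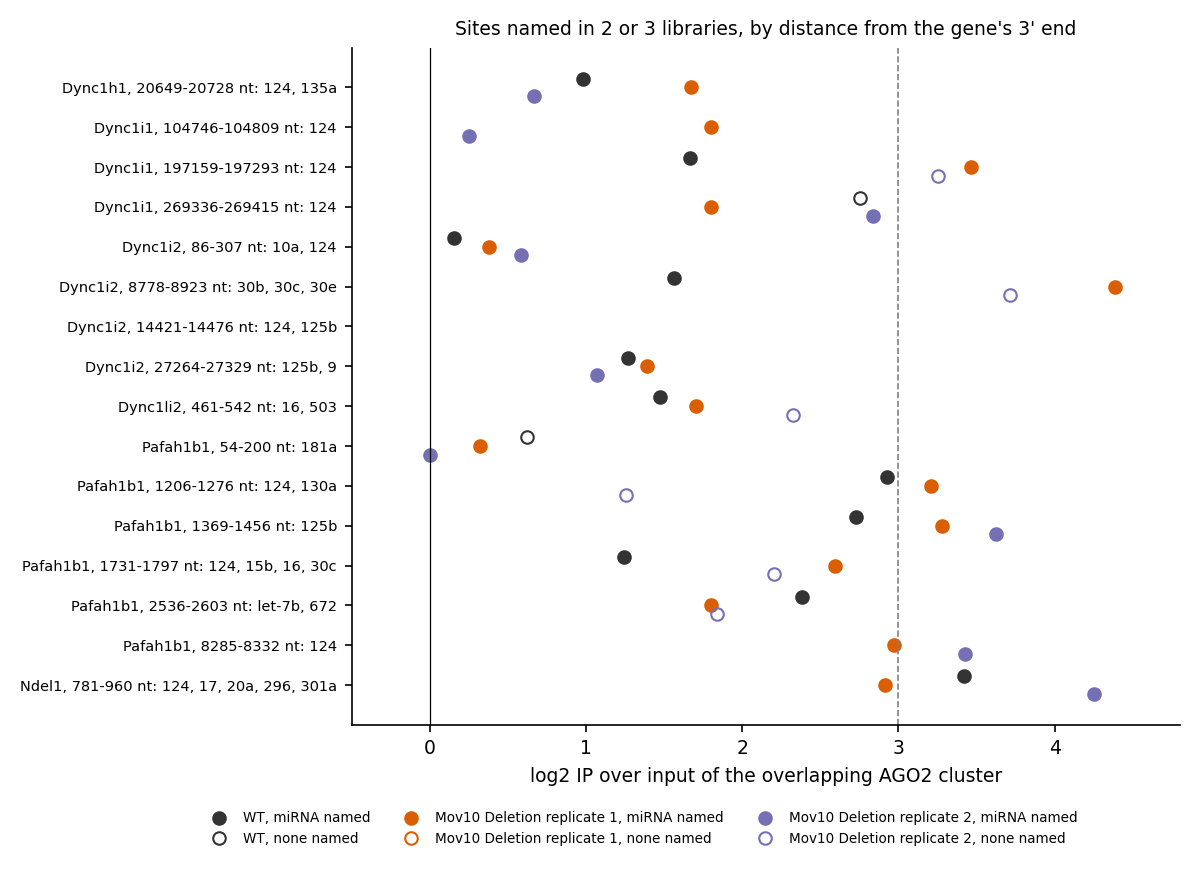
Log2 IP over input (horizontal axis) of the highest AGO2 cluster that overlaps each of the 16 target sites named in 2 or 3 libraries, with sites labelled by gene, distance from the 3' end and miRNA number. Filled points are libraries in which a miRNA was named and open points those in which none was, and the dashed line marks a log2 of 3. The points spread from 0.00 to 4.38, and a missing point, as in all libraries at 14421 to 14476 nt of *Dync1i2*, means that no AGO2 cluster overlapped.

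Of 47 other genes of dynein, dynactin, their adaptors and the NUMA1 cortical complex, 16 of 44 with a cluster had an enriched one in WT, 26 of 46 in *Mov10* Deletion 1 and 22 of 46 in *Mov10* Deletion 2, with 17 in both replicates and 11 in all 3 libraries. Of protein-coding genes with clusters, 20.6%, 45.4% and 35.7% had an enriched one in the same order, 27.0% in both replicates and 16.6% in all 3 libraries. No gene of the 9 was enriched in all 3. *Numa1*, whose product binds LGN and dynein, had 1, 3 and 6 enriched clusters of 41 in each library, with highest values of 4.66, 5.66 and 5.16. Of all clusters, 2.11%, 5.18% and 3.10% were enriched in the same order. Positions of these clusters within *Numa1* are not given here. The others of the 6 genes with the highest values in all 3 libraries were *Pard3*, a polarity protein, the adaptors *Trak1* and *Mapk8ip3*, the G protein subunit *Gnai2* that binds LGN, and *Clip1*, which tracks microtubule plus ends. Their lowest values over the 3 libraries ran from 3.59 for *Clip1* to 4.25 for *Pard3* and *Trak1*. *Pard3* and *Trak1* are long, with 193 and 103 clusters in WT and 358 and 198 in each *Mov10* Deletion library. Their highest values were thus drawn from many clusters. No test compared these genes with the 9.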

How the data were processed

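AGO2 chimeric eCLIP libraries of mouse brain at postnatal day 0 (1 WT IP, 2 *Mov10* Deletion IP) were analysed, and the 3 inputs entered only through the authors' ratios. Per the methods and the submitters' processing notes, the authors pruned molecular identifiers with UMI-tools 1.1.1, trimmed adapters with cutadapt 3.2, removed repeat and rRNA reads, mapped to mm10 with STAR 2.7.7a and called clusters with CLIPper. Bowtie 1.2.3 is also listed. The authors deposited 2 values with an AGO2 cluster, the log2 of its IP over input ratio and the −log10 p of its p-value. For chimeric reads the authors deposited target clusters with a miRNA and a score, whose scale is not given in the sources used here and whose lowest value was 3. Because ratios and p-values carry no totals, depth is unknown.

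Clusters were overlapped on the same strand with RefSeq gene bodies on GRCm38.p6 (bedtools 2.31.1, pandas 2.3.3). Strands came from the promoter table or from GENCODE vM39 symbols, for 45274 of 49997 genes. The reads of a cluster were inferred as the whole numbers that fit its ratio and its −log10 p within 0.001, with up to 60 input reads tried and an exact test assumed under 5 reads. Pairs were found for 97.0%, 99.4% and 99.1% of enriched clusters, and the method was tested on simulated data. Intervals are exact Clopper-Pearson (SciPy 1.17.1). An exon annotation of mm10 was not used here, so seed matches came from GRCm39 transcripts at the same distance from the gene end, with no coordinate converted.

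The genes, lists and thresholds were chosen with earlier results of these data known, and so were the sequence search and its limit of 500 nt, which were added after the values were seen. All 9 genes are named, as are miRNAs with at least 2 assignments or a gene's highest score. Other miRNAs at recurring sites were named after their values were seen. Of the 47 further genes, the 6 with the highest values enriched in all libraries are named, with *Numa1* and *Mov10*. Alternatives were a stricter p-value, a lower fold, whole containment, gene ends extended by 1000 nt, at least 16 IP reads, a wider end window, summed length, minimum width, a higher score and single-miRNA clusters.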

Additional observations from a re-analysis of the deposited data

How the results depend on the processing

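At a −log10 p of at least 5, enriched clusters of the 9 genes numbered 5 and 3 in *Mov10* Deletion 1 and 2, in 2 and 3 genes, with 1 gene in both. A minimum of 16 IP reads gave the same numbers, 5 and 3 clusters in 2 and 3 genes and 1 in both. At a log2 of at least 2 there were 7 clusters in 2 genes in WT, 33 and 24 clusters in *Mov10* Deletion 1 and 2, and 7 genes in both. WT kept 1 enriched cluster under every other alternative. Shares of all clusters and of all genes were not computed at these alternative cut-offs, so these counts have no background beside them. The last 3000 nt held 13.7%, 7.82% and 7.82% of the AGO2 clusters. A score of at least 5 left 12, 17 and 7 target clusters. Leaving out either *Mov10* Deletion replicate gave 5 genes each time. Whole containment, extended gene ends, single-miRNA clusters and summed length moved none of these values by over 1.5 times. No paired analysis was possible, because there was 1 WT library and the labels name no pairing of libraries between genotypes. No test between genotypes was made. Enriched clusters in *Mov10* Deletion rest on medians of 14 and 11 IP reads against 37 in WT, which limits how far calls of single clusters can be compared.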

Other observations

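Several target clusters of the dynein and LIS1 genes lay far from any gene end and on no AGO2 cluster. Lying on no AGO2 cluster was common among all target clusters. In WT, 63.3% of the target clusters of the genes described lay on an AGO2 cluster at any p, against 68.8% of all target clusters. In *Mov10* Deletion 1 the shares were 50.0% and 50.2%, and in *Mov10* Deletion 2 they were 68.4% and 53.6%. In *Pafah1b1*, *Mov10* Deletion 1 listed miR-669o-3p on adjoining target clusters starting 15036 and 15054 nt from the end, with scores of 5.0 and 10.3, and miR-487b-3p at 11959 nt with a score of 11. None of these was listed in WT or *Mov10* Deletion 2. miR-124-3p at 8285 to 8332 nt of *Pafah1b1* was listed in all 3 libraries (4.77, 4.08 and 4.82), over an AGO2 log2 of 2.97 and 3.42 in *Mov10* Deletion 1 and 2 and over no AGO2 cluster in WT. miR-181a-5p was listed 54 to 200 nt from the end of *Pafah1b1* in both *Mov10* Deletion replicates (4.66 and 6.0), where the AGO2 log2 was 0.32 and 0.00, and was not listed in WT, where it was 0.62.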
